A study of Mus musculus with 2 samples.

Results

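Messenger RNA levels of 9 adhesion molecules that guide white blood cells across vessel walls were examined in lymphatic endothelial cells (LECs) of mouse embryonic skin. They were chosen by gene symbol as selectins (Selp, Sele), sialomucins and selectin ligands (Selplg, Cd34, Emcn, Podxl) and adhesion molecules of the immunoglobulin family (Vcam1, Icam1, Icam2), and all 9 were found among the 24319 rows of the deposited lists. The study compared 2 RNA-seq libraries of skin LECs from C57BL/6 embryos at E15.5 (embryonic day). The control library was labelled wild type, and the other was labelled as a knockout of Dot1l, which encodes a histone H3 methyltransferase. The protocol text calls the knockout endothelial, but the Cre driver, the deleted part of the gene and the method of purifying the cells are not stated in the records used. Each library was made from RNA pooled from 2 to 3 biological replicates. A culture protocol for primary dermal LECs stands in the labels too, and whether the sequenced cells had been cultured is not stated in the records used. With 1 library per genotype there was no spread between replicates, so no test was made and every difference below describes these 2 libraries.

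White blood cells leave or enter vessels in steps. Selectins on the endothelium catch the cells as they roll by binding sugar chains on mucin-like proteins, of which PSGL-1, encoded by Selplg, is the best known on leukocytes. The cells then stop when their integrins bind ICAM and VCAM proteins. On resting vessels a coat of sialomucins, among them CD34, endomucin and podocalyxin, lines the vessel surface, and in lymphatic vessels of inflamed skin ICAM-1 and VCAM-1 help dendritic cells to enter.

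The deposited values were taken as FPKM, the number of fragments scaled to transcript length and to the size of the library. Whether the libraries were also scaled to each other is not stated in the records used. The values summed to 415537 in control and 530294 in the knockout-labelled library. The depth estimated from the steps between low values was about 10200000 and 9090000 fragments. Dot1l was listed at 5.86 FPKM in control and 10.4 in the knockout-labelled library. Since the deleted part is not known, this value does not check the label. All 12 pan-endothelial markers outside the adhesion molecules were above 0 in both libraries, with summed levels of 1319 and 335 FPKM. Of 9 lymphatic markers, 7 of the 8 that reached 1 FPKM were 2-fold or more lower in the knockout-labelled library (summed over all 9, 1513 and 742 FPKM). These 8 reached it in both libraries, and of all such genes 13.3% were lower. Lyve1 was the exception, at 526 and 552 FPKM, and without it the sums over 8 were 987 and 190 FPKM. Ccl21a was listed at 0 there and at 0.538 FPKM in control. Markers of most other cell types moved with the genotype label as well, while the sums over 7 lymphocyte markers were close, at 5.74 and 6.97 FPKM. The sums over 7 pan-leukocyte markers were 23.0 and 1129 FPKM, over 14 macrophage markers 62.7 and 3661, over 8 mast cell markers 104 and 12933, and over 7 neutrophil markers 7.07 and 316. Of the neutrophil markers, S100a8 (3.98 and 104 FPKM) and S100a9 (1.63 and 205) held most of the sum in the knockout-labelled library. Mpo (0.783 and 1.56), Ngp (0.307 and 0.882), Ltf (0.114 and 0.806) and Camp (0.257 and 0) were low in both libraries. Csf3r was listed at 0 in control and at 3.74 FPKM in the knockout-labelled library. Sums over 9 fibroblast markers were 3431 and 894 FPKM, and over 9 pericyte and smooth muscle markers 199 and 31.8. C1qc and Fcer1a were at 0 in control. In bulk RNA, fewer cells of a type and less RNA per cell cannot be told apart. The part of these cells in the differences below was not tested.

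The 9 genes divided into 3 sets. Differences between the libraries were taken on the log2(FPKM + 1) scale, knockout-labelled library minus control, and a difference of at least 2-fold was counted. Cd34, Emcn, Podxl and Icam2 were 2-fold or more lower in the knockout-labelled library, Selplg, Icam1 and Selp were 2-fold or more higher, and Vcam1 and Sele lay within 2-fold. Of 13296 genes at 1 FPKM or more in at least 1 library, 32.3% were past 2-fold, of which 2060 were lower and 2231 higher. All 9 adhesion molecules passed that minimum, but Selp and Selplg passed it only through the knockout-labelled library, where they were higher, and so had to differ. Among the 7 that reached 1 FPKM in both libraries, 4 were lower and 1, Icam1, was higher, beside 13.3% and 12.1% of the 11112 genes that reached it in both. The median difference of all 9 was -0.43 (the value of Vcam1), and that of all genes was 0.00.

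**Figure D1:**
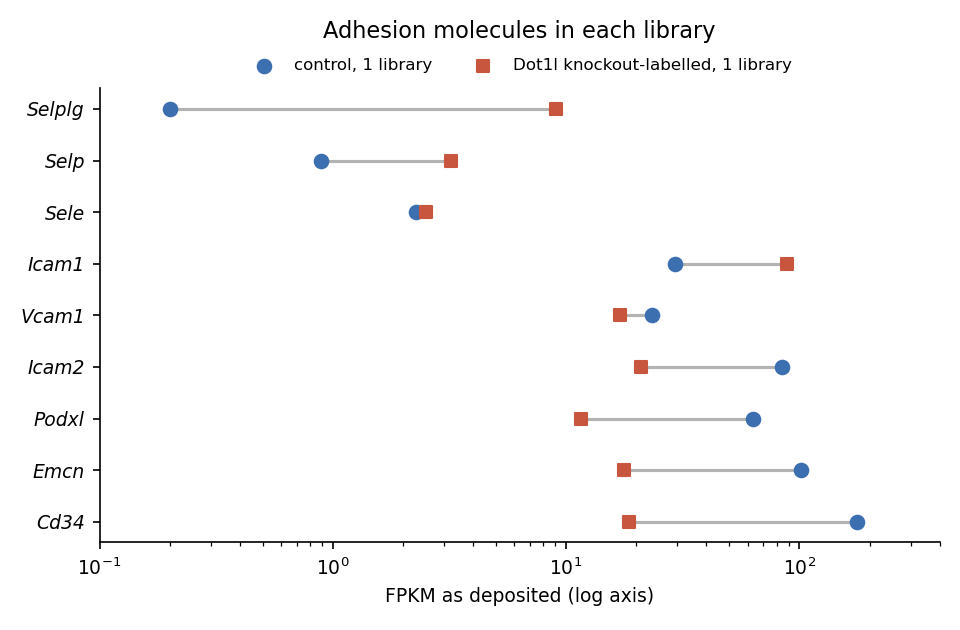
FPKM of the 9 adhesion molecules as deposited (log axis), with 1 point per library: circles for control and squares for the knockout-labelled library. Cd34, Emcn, Podxl and Icam2 lie further left in the knockout-labelled library, Selplg, Selp and Icam1 further right, and the points of Sele nearly coincide at 2.28 and 2.51 FPKM.

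**Figure D2:**
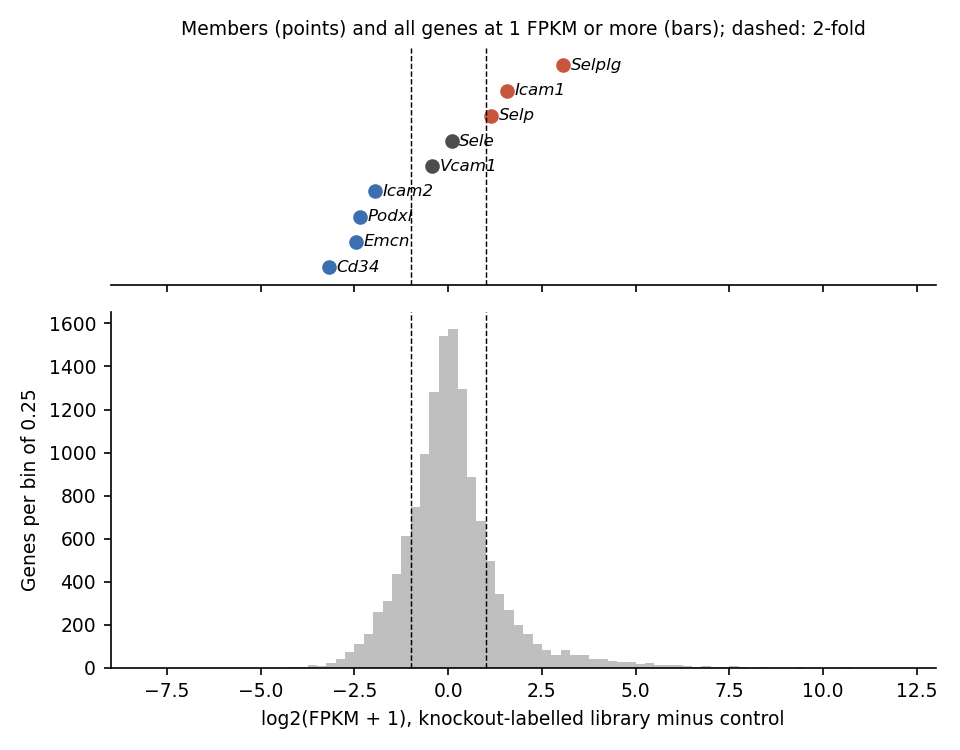
Difference of each adhesion molecule (upper panel, points) beside the number of genes in each bin of 0.25 for all 13296 genes at 1 FPKM or more in at least 1 library (lower panel, bars), both as log2(FPKM + 1), knockout-labelled library minus control; dashed lines mark 2-fold. Cd34 is the lowest of the 9, at -3.19, and Selplg the highest, at 3.07.

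The selectins of the vessel wall were low in both libraries. Sele encodes E-selectin, which endothelial cells make when cytokines activate them. It was 2.28 FPKM in control and 2.51 in the knockout-labelled library, a difference of 0.10, and the estimated 63 and 62 fragments behind these values put the fold of 1.10 between 0.769 and 1.60 (95% exact Clopper-Pearson interval on the estimated fragments). Its sign depended on the scaling, with -0.18 when both libraries were set to a sum of 1000000 and -0.02 at the same upper quartile. Selp encodes P-selectin, which endothelial cells and platelets keep in storage granules. It was 0.893 FPKM in control and 3.20 in the knockout-labelled library, 3.59-fold higher, with about 30 and 94 fragments and an interval of 2.32 to 5.52. These intervals, and that of Selplg below, cover counting error only and rest on the estimated depth and a single transcript per gene. The ratio of Selp to Sele within a library, which no scaling changes, was 0.392 in control and 1.28 in the knockout-labelled library. Selp lost the 2-fold call with a pseudocount of 5, where its difference was 0.48.

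Because platelets also hold P-selectin, the platelet and megakaryocyte markers were read beside Selp. The sums over 10 markers were 13.2 and 33.9 FPKM. Only 5 reached 1 FPKM, 4 of them through the knockout-labelled library alone, where they had to be higher. Itgb3, the only marker at 1 FPKM or more in both libraries, was 9.43 and 4.86 FPKM, a difference of -0.83. Itga2b, an integrin chain of platelets and mast cells, was 0.774 and 6.41 FPKM, and Ppbp, a platelet chemokine, 0.673 and 18.5. The platelet receptor genes Gp9 (0.819 and 0 FPKM) and Gp1bb (0.429 and 0.133) had lower values there, and Gp6 was listed at 0 in both. The part of platelets in the Selp value was not tested.

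Selplg had the largest positive difference of the 9 genes. PSGL-1, its product, is carried by leukocytes and binds P-selectin and E-selectin. Selplg was 0.201 FPKM in control and 9.10 in the knockout-labelled library, a difference of 3.07 and a ratio of 45.2. The control value rests on about 3 fragments against 137, so counting error alone puts the ratio between 17.2 and 253. All 7 pan-leukocyte markers were 2-fold or more higher in the same library, with a median difference of 5.71, and 3 of them reached 1 FPKM only there. The other 4 reached it in both libraries, and of all such genes 12.1% were higher. As ratios of FPKM the 7 markers ran from 13.2 (Lcp1) to 192 (Ptprc). Lcp1 and Laptm5 (42.3) lay below the 45.2 of Selplg, and the others lay above it, from 98.1 (Cd52) upward. Ptprc, which encodes the leukocyte antigen CD45, was 0.367 and 70.3 FPKM. The ratio of Selplg to Ptprc was 0.548 in control and 0.129 in the knockout-labelled library. The part of leukocytes in the Selplg value was not tested.

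The immunoglobulin family went 3 ways. Icam1 encodes a ligand of the leukocyte integrins LFA-1 and Mac-1 that cytokines induce on endothelium and that macrophages and other cells also carry. Icam1 was 29.4 FPKM in control and 88.9 in the knockout-labelled library, 3.02-fold higher, a difference of 1.56. It stayed 2-fold or more higher under every pseudocount and scaling tried (1.23 to 3.47). Vcam1 encodes the ligand of the integrin formed by Itga4 and Itgb1, and is found on activated endothelium, on stromal cells and on some macrophages. It was 23.3 FPKM in control and 17.0 in the knockout-labelled library, a ratio of 0.732 and a difference of -0.43, which turned positive with the pan-endothelial markers set to no difference (1.43). Icam2 encodes a ligand of LFA-1 that resting endothelium carries without induction. It was 84.1 FPKM in control and 21.0 in the knockout-labelled library, 4.002-fold lower, a difference of -1.95. The ratio of Icam1 to Icam2 within a library was 0.350 in control and 4.23 in the knockout-labelled library, and that of Icam1 to Vcam1 was 1.27 and 5.22. The summed level of the 3 genes differed less, with 137 FPKM in control and 127 in the knockout-labelled library. Macrophage markers (median difference 5.78 over 14 genes) were higher and fibroblast markers (median -1.92 over 9) lower in the same library, and their part in the Icam1 and Vcam1 values was not tested.

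Icam1 and Sele are textbook targets of the factor NF-kB, and their upstream sequences are shown because the pair differed in level and in difference between the libraries. The 250 bases before the annotated start were taken from RefSeq (GRCm38.p6, forward strand), which lists such a window for 5 of the 9 genes, and not from mm9, the build named in the submitters' processing notes. They lie at chr9:21015690-21015939 and chr1:164047984-164048233. Capitals mark matches to a short form of the NF-kB motif, GGNNNTTCC, on either strand, which 15.7% of 32851 RefSeq windows of this length hold. Icam1 had 2 matches, Sele 1 and Selp 1, and Cd34 and Emcn had none. A match is a description of letters and no evidence of binding.
Icam1: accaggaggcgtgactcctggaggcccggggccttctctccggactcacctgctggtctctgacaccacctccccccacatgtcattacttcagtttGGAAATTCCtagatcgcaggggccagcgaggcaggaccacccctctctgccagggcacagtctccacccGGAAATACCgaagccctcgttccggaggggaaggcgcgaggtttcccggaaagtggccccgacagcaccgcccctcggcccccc
Sele: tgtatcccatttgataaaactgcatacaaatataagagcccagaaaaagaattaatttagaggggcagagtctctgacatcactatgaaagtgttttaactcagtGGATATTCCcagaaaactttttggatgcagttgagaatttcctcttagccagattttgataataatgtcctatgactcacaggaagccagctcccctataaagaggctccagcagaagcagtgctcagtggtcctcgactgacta

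The sialomucins had the largest negative differences. Cd34, a sialomucin of vascular endothelium, of fibroblast-like stromal cells and of blood progenitors, was 177 FPKM in control and 18.5 in the knockout-labelled library, 9.53-fold lower, a difference of -3.19. Only 0.346% of the 13296 genes had a lower difference. Emcn encodes endomucin, which covers the surface of capillaries and veins and hinders leukocyte adhesion. It was 101 FPKM in control and 17.7 in the knockout-labelled library, 5.75-fold lower (-2.46). Podxl encodes podocalyxin, which sits on the luminal side of endothelium and on kidney podocytes. It was 63.3 FPKM in control and 11.6 in the knockout-labelled library, 5.45-fold lower (-2.35). These 3 genes made up 70.9% of the summed level of the 9 adhesion molecules in control and 25.2% in the knockout-labelled library, while the share of the ICAM and VCAM genes was 28.4% and 67.0%. Emcn and Podxl kept nearly the same proportion to each other, with a ratio of Podxl to Emcn of 0.624 and 0.658, whereas the ratio of Cd34 to Emcn was 1.74 and 1.05. Podxl2, which encodes the related mucin endoglycan, was 13.8 and 2.504 FPKM, so that the ratio of Podxl to Podxl2 was 4.59 and 4.64.

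The upstream sequences of Cd34 and Emcn are shown as those of the 2 sialomucins with a RefSeq window and with lower levels in the knockout-labelled library. They cover 250 bases before the start (GRCm38.p6, forward strand) at chr1:194938571-194938820 and chr3:137340828-137341077. Capitals mark matches to CNGGAAG, a core of the motif of ETS factors, a family with members such as ERG and FLI1 that act in endothelium. Each held 1 match, on the reverse strand, as did 26.6% of all windows on either strand. Sele also held 1 match to these letters, and Icam1 and Selp held none. Other forms of the ETS motif were not counted. No window of the 5 genes held the GATA motif AGATAA (9.99% of all windows), and Sele alone held the TATA motif TATAAA (12.4%).
Cd34: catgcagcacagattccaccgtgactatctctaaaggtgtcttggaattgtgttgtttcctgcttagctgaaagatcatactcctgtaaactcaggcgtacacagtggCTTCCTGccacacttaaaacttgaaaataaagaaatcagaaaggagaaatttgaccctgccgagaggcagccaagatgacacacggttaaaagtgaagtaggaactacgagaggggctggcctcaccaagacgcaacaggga
Emcn: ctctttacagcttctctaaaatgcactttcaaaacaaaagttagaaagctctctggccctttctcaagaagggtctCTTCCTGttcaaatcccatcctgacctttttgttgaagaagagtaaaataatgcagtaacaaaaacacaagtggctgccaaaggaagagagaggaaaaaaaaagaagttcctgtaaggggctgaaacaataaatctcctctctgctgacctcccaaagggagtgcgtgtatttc

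The order of the levels differed between the libraries. In control the order from high to low was Cd34, Emcn, Icam2, Podxl, Icam1, Vcam1, Sele, Selp and Selplg. In the knockout-labelled library Icam1 came first, followed by Icam2, Cd34, Emcn, Vcam1 and Podxl, then Selplg, Selp and Sele. Cd34 stood above 97.9% of the genes listed above 0 in control and above 73.3% in the other library, and Icam1 above 84.1% and 94.8%. The 5 genes from Icam2 to Podxl spanned only 11.6 to 21.0 FPKM in the knockout-labelled library, and without replicates neighbours in either order cannot be separated.

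Because endothelial genes as a group were lower in the knockout-labelled library, each gene was also read against the 12 pan-endothelial markers outside the set. Their median difference was -1.88, from -2.74 (Tek) to -0.80 (Eng). Icam2 (-1.95), Podxl (-2.35) and Emcn (-2.46) lay within that range, and Cd34 (-3.19) below it. Icam2 was 6.38% of the summed level of the 12 markers in control and 6.27% in the knockout-labelled library. Emcn was 7.69% and 5.26%, Podxl 4.80% and 3.46%, and Cd34 13.4% and 5.53%. The others lay above the range of the markers. Vcam1 was 1.76% and 5.08% of the marker sum, Icam1 2.23% and 26.5%, Sele 0.173% and 0.747%, and Selp 0.0677% and 0.955%. With the libraries set so that the marker median showed no difference, 5 of the 9 were 2-fold or more higher (Vcam1 at 1.43 and Sele at 1.68 joined Selp, Selplg and Icam1) and 1, Cd34 at -1.32, was 2-fold or more lower. Under that setting 76.2% of all genes were 2-fold or more higher and 2.37% 2-fold or more lower.

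**Figure D3:**
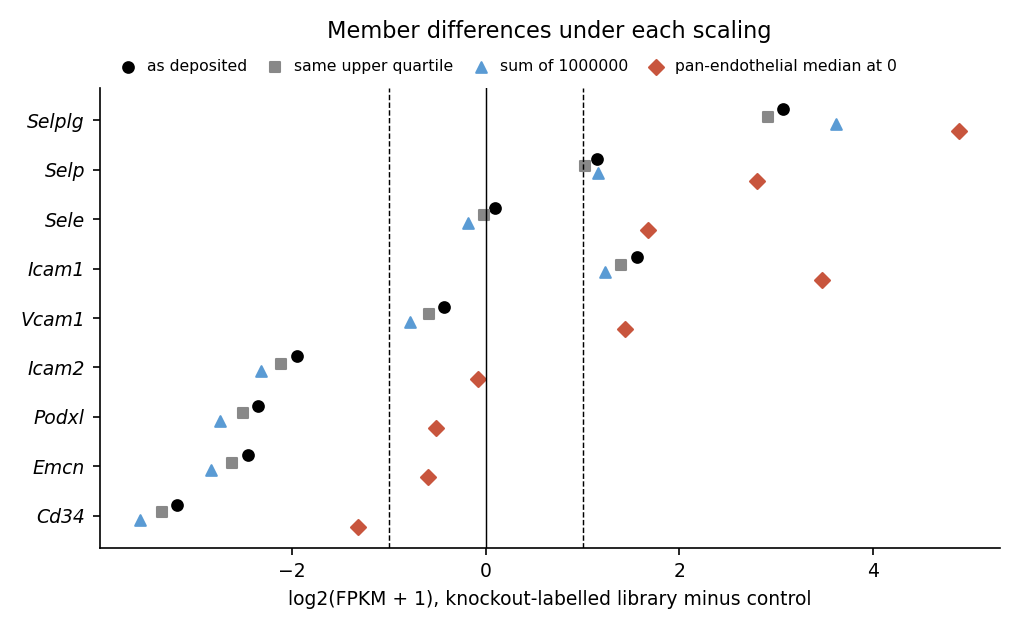
Difference of each adhesion molecule, log2(FPKM + 1), knockout-labelled library minus control, under 4 scalings: as deposited (circles), the same upper quartile (squares), each library at a sum of 1000000 (triangles) and the 12 pan-endothelial markers at a median of no difference (diamonds); dashed lines mark 2-fold. The diamonds lie to the right throughout, and with them only Cd34 stays past 2-fold on the lower side.

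On the leukocyte side of adhesion, the receptors of these molecules were mostly higher in the knockout-labelled library. Of 11 counter-receptor genes 10 reached 1 FPKM, of which 9 were 2-fold or more higher and none lower, with a median difference of 2.46. Of all 13296 genes 2231 were higher and 2060 lower by as much. For 6 of the 10 counter-receptor genes the minimum was met only in the knockout-labelled library, where they had to be higher. Over the other 4, 3 were higher and none lower, with a median of 1.30. Among all genes at the minimum in both libraries 12.1% were higher and 13.3% lower. Itgam and Itgb2, the chains of Mac-1, were 0.322 and 29.6 FPKM and 0.472 and 20.1 FPKM. Itgal, the other partner of Itgb2, was 0.0957 and 5.50. The VCAM-1 receptor chain Itga4 was 5.67 and 30.2 FPKM, while its partner Itgb1, which most cells make, was 298 and 257. Cd44, a hyaluronan receptor that can bind selectins, had the smallest difference of those 9, with 36.9 and 77.7 FPKM. The part of leukocytes, whose 7 general markers had a median difference of 5.71, was not tested.

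Most genes listed for selectin ligands and their synthesis lay within 2-fold. Of 18 genes 16 reached 1 FPKM, of which 12 were within 2-fold, 2 higher and 2 lower. Of all 13296 genes 9005 were within 2-fold, 2231 higher and 2060 lower. The list was thus past 2-fold no more often than all genes, of which 32.3% were. The median was 0.25. The highest differences were in Chst1, a sulfotransferase (4.94 and 36.2 FPKM), and in Slc35c1, the carrier that brings fucose donor into the Golgi (2.13 and 12.0). Lower values were found for Chst2, a sulfotransferase of mucin sugar chains (8.28 and 1.71), and Tpst1, which sulfates tyrosines such as those of PSGL-1 (34.1 and 9.90), while its relative Tpst2 was 18.3 and 23.2. Gcnt1, which makes the branched core of mucin sugar chains, was 32.6 and 55.4 FPKM. Fut7, the fucosyltransferase that completes selectin ligands in leukocytes, and Chst4 were listed at 0 in both libraries.

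Other endothelial adhesion and transit genes were lower on balance. Among 22 genes at 1 FPKM or more, 12 had values lower by 2-fold or more and 4 higher by as much, and the median was -1.22. Of these 4, Icam4 and Icam5 reached the minimum only in the knockout-labelled library. Over the 19 genes that reached it in both libraries, 12 were lower and 2 higher with a median of -1.55, beside 13.3% and 12.1% of all such genes. The median was 0.32 with the pan-endothelial markers set to no difference. Cdh5, which encodes VE-cadherin, was 227 and 34.4 FPKM, and Mcam, an immunoglobulin adhesion molecule of vessels, 74.1 and 11.7. The highest differences were in Icam4 (listed at 0 in control and at 3.12 FPKM in the other library) and in Cd164, a widely expressed sialomucin (72.7 and 212). Madcam1, the ligand of Itga4 with Itgb7 in gut vessels, was 2.16 and 0.786, and Glycam1, a secreted mucin, was listed at 0 in both. Pecam1, Esam and Cdh5 are counted here and among the pan-endothelial markers, so these lists are not independent.

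Genes of proteins that tie podocalyxin and the ICAMs to actin differed in both directions. Of 9 linker genes 5 were within 2-fold, 3 were lower and 1 higher, where 32.3% of all genes were past 2-fold. The median was -0.16. The genes of 2 scaffold proteins known to bind podocalyxin differed in opposite directions as deposited. Slc9a3r1 was 4.40 FPKM in control and 29.8 in the knockout-labelled library, and Slc9a3r2 was 23.7 and 8.26, which made their ratio 0.185 and 3.60. Ezr and Msn, which encode ezrin and moesin, were 24.2 and 32.8 and 155 and 201 FPKM. Rdx, which encodes the related radixin, was lower in the knockout-labelled library, with 288 and 139 FPKM (-1.05). The lowest difference was in Cttn, an actin-branching partner of ICAM-1 signalling, with 72.9 and 25.0.

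Genes of the cytokine and NF-kB pathways that induce endothelial adhesion molecules were higher on balance. The list also holds Nfkbia (52.1 and 293 FPKM) and Tnfaip3, whose products restrain NF-kB, and both are among the higher genes counted below. Of 16 genes at 1 FPKM or more, 10 were higher by 2-fold or more and 1 was lower, and the median was 1.73. For 2 of the higher genes, Il1a and Il1b, the minimum was met only in the knockout-labelled library. Over the other 14, 8 were higher and 1 lower with a median of 1.61, beside 12.1% and 13.3% of all genes at the minimum in both libraries. Il1b, an inducer of Sele, Icam1 and Vcam1, was 0.174 and 134 FPKM, and Tnfaip3, a feedback inhibitor of NF-kB, 4.64 and 243. The lower gene was Il1r1, the receptor through which interleukin 1 acts on endothelium, with 12.7 and 5.53, and Ltbr, the lymphotoxin receptor, was 21.8 and 17.8. Among proteases that shed adhesion molecules, Adam8 was 0.596 and 41.6 FPKM and Ctsg, a granule protease, was listed at 0 and at 26.9. Adam10 and Adam17, which most cells make, were 65.3 and 52.3 and 29.3 and 53.6. The same library had higher macrophage (median 5.78) and mast cell markers (median 6.75), whose part was not tested.

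**Figure D4:**
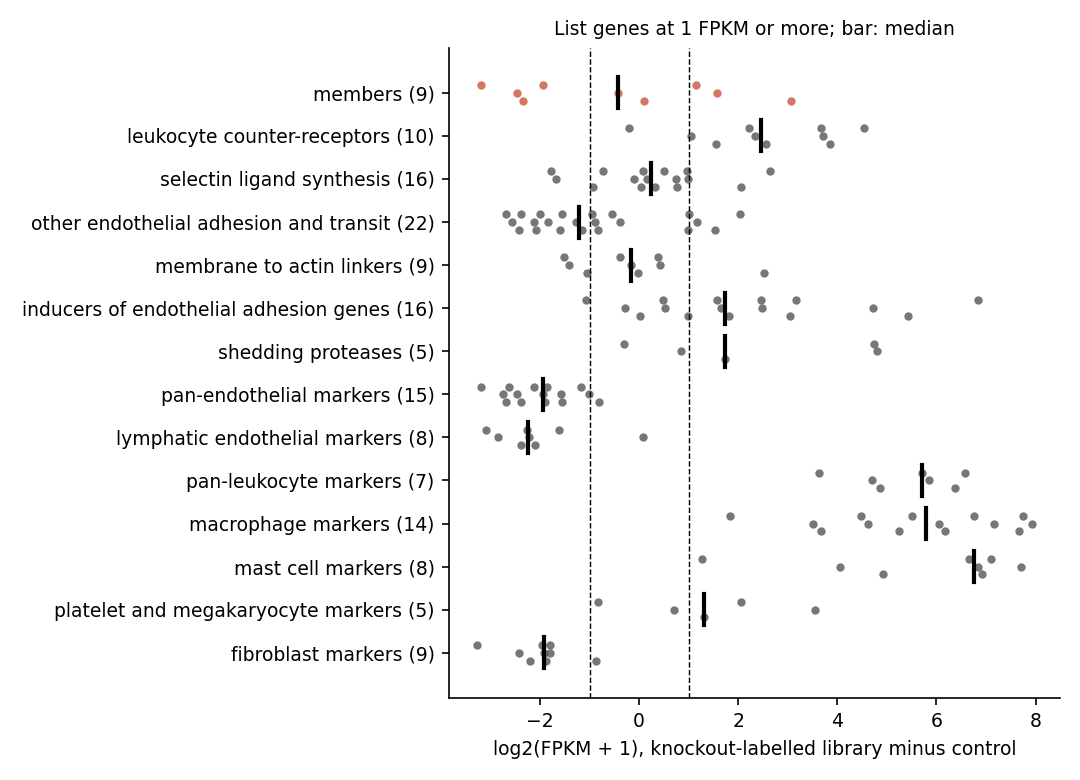
Difference of each gene at 1 FPKM or more, log2(FPKM + 1), knockout-labelled library minus control, by list, with the number of genes in brackets; black bars are medians and dashed lines mark 2-fold. The adhesion molecules (top row) reach from the range of the pan-endothelial markers (median -1.95 with the 3 shared genes) into that of the leukocyte counter-receptors (median 2.46).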

How the data were processed

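RNA-seq of 2 libraries, 1 per genotype, was used. The values deposited by the authors were taken as FPKM, because Cufflinks 2.2.1 and Cuffnorm are named in the submitters' processing notes, with STAR 2.5.2b, R 3.3.2 and the build mm9. The roles of these tools, the annotation, strand use and scaling between libraries are not stated in the records used. The gene order was identical in the pair of lists. Differences were log2(FPKM + 1), which understates changes of low genes, taken where a gene had 1 FPKM or more in at least 1 library, with a call at 2-fold. Folds and ratios of single genes are ratios of deposited FPKM. Depth was estimated from steps of low values in genes with 1 transcript of at least 2500 nt (GENCODE M21, fragments assumed to be 200 nt). Multiples of a step also give whole values. The step was therefore read at a local peak near the smallest depth whose share of whole values came close to the best. At that step 159 control values were whole, to within 0.1 and up to 5, in 83.0% of cases, and 175 values of the knockout-labelled library in 76.0%. Fragments per gene use the longest coding transcript. A count model was not used, as whole counts could not be had for every gene. The 2-fold call was checked only on control values multiplied by known factors, without noise. The depth estimate was checked on fragments simulated with the same assumed length and transcripts. Neither check could test those assumptions or the noise of the real values. Named genes are the 9 members, Dot1l, the 2 highest and 2 lowest of each related list and direct partners fixed with the design, and markers of other cells. Ptprc, Lcp1, Laptm5, Lyve1, Itgb3, Icam5, Il1a, Nfkbia, Rdx, Itga2b, Ppbp, Gp9, Gp1bb, Gp6, Ccl21a, C1qc, Fcer1a, S100a8, S100a9, Mpo, Ngp, Ltf, Camp, Tek, Eng and Chst4 were singled out after their values were seen. Cd52 and Csf3r were named for the same reason. Not every list gene is reported here by name. The members and lists were chosen with earlier results of these data known. Python 3.11.15, numpy 2.4.6 and pandas 2.3.3 were used. Alternative pseudocounts, scalings, minimums and folds are given in the closing section. Promoter windows came from RefSeq (GRCm38.p6).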

Additional observations from a re-analysis of the deposited data

How the results depend on the processing

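No paired analysis was possible because there is only 1 library per genotype. For the same reason none could be left out, and the spread between pools is not measured. The limits of depth fall on Selp, Sele and Selplg. Under 11 alternatives Cd34 (-3.57 to -1.32) and Selplg (1.44 to 4.93) kept their call. Setting both libraries to a sum of 1000000 moved the median of all genes from 0.00 to -0.33, with 1900 genes 2-fold or more higher and 3330 lower in place of 2231 and 2060, and left the calls of all 9 adhesion molecules as they were. With a pseudocount of 5, Selp (0.48) and the medians of the other endothelial adhesion genes (-0.91) and of the shedding proteases (0.77) lost the 2-fold call. At 3-fold, Selp (1.15), Icam1 (1.56) and the other endothelial adhesion genes (median -1.22) were no longer called, which left 1 adhesion molecule higher. A minimum of 5 FPKM left out Selp and Sele and gave a median of -1.95 for the 7 others. With the pan-endothelial markers set to a median of no difference, Icam2 (-0.076), Emcn (-0.59) and Podxl (-0.51) lost the call, Sele (1.68) and Vcam1 (1.43) gained it, and 5 adhesion molecules were higher and 1 lower, with a median of 1.43. The medians of the selectin ligand genes (2.01) and actin linkers (1.73) then passed 2-fold, and those of the other endothelial adhesion genes (0.32) and of the keratinocyte markers (0.44) changed sign. That setting shifts all genes by construction.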

Other observations

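Part of the ICAM genes sit side by side in the genome, and the values of such neighbours are given here without explanation. In the RefSeq gene order (GRCm38.p6) Icam4 and Icam5 follow Icam1 on chromosome 9. Icam4 was listed at 0 in control and at 3.12 FPKM in the knockout-labelled library, and Icam5 was 0.139 and 1.28 FPKM, while Mrpl4, the gene before Icam1, was 10.9 and 10.3 FPKM. No protein-coding gene of that annotation overlaps any of the 9 adhesion molecules. Long non-coding RNA genes overlap Selp, Sele, Cd34 and Emcn, and of these Gm16548, over Selp, was listed at 0 in both libraries and Gm16897, over Cd34, at 0.211 FPKM in the control library and at 0 in the knockout-labelled one.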
